A study of Mus musculus with 2 samples.

Results

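Long intergenic noncoding RNA (lincRNA) genes were examined in mouse bone marrow-derived macrophages of the strain C57BL/6J, which are phagocytes obtained by culturing marrow cells. Members were chosen by the annotation and by their level: all transcripts of the gene are typed lincRNA, and its TPM (transcript abundance per length, scaled to the library) was at least 1 in both libraries. There were 133 of them among 5844 such lincRNA genes and 55536 genes in all. The cells had received Lipid A, the part of bacterial lipopolysaccharide that Tlr4 recognises, at 100 ng/mL for 12 h. They were then washed free of it for 12 h and given 100 ng/mL again for 30 min. The free-text label names Lipid A and the treatment label lipoprotein A, and the labels do not settle which is right. Both libraries of polyadenylated RNA, replicates 1 and 2, belong to this 1 group, carry a shared donor record and have no recorded sex or age. The labels call them biological replicates but do not say that they came from separate animals, so the spread between them may be partly technical. No untreated library was analysed here, so every level describes restimulated cells and none describes induction. The libraries held 30780681 counts in replicate 2 and 41938419 in replicate 1 after rounding, so a count of 0 allows up to 0.0975 and 0.0715 CPM (counts scaled to the library total).

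A lincRNA gene is transcribed by RNA polymerase II and usually spliced, capped and polyadenylated, but is annotated without a protein product. Some act in the nucleus, as scaffolds of nuclear bodies or as regulators of genes on their own chromosome, some bind proteins or miRNAs in the cytoplasm, and some are precursors from which miRNAs or small nucleolar RNAs are cut. In macrophages several are known to rise after Toll-like receptor signals, and Mir155hg, the host of miR-155, is the textbook case. These TPM values chose the members, so their levels are given as a description and were not tested.

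All 8 macrophage markers were above 1 TPM in both libraries, and B cell and erythroid markers summed to at most 0.13 TPM. The 5 stromal markers, led by collagen genes, summed to 629 TPM in replicate 2 and 553 TPM in replicate 1. The 7 neutrophil markers summed to 9.88 TPM in replicate 2 and 75.2 TPM in replicate 1, and none was at 0 in both libraries. Of 4 T cell markers only Cd4, which macrophages can also carry, passed 1 TPM in both libraries. In bulk RNA, fewer cells of a type and less RNA per cell cannot be told apart.

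The following sequences show what the transcripts carry. They are 5 of the mature miRNAs whose genes lie inside members, chosen for the hosts whose values differ most between libraries or tables and for the abundant H19, from RefSeq on GRCm38.p6, with the seed (bases 2 to 8, which pair with target mRNAs) in capitals.
mmu-miR-155-5p, in Mir155hg: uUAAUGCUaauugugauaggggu
mmu-miR-142a-3p, in Mir142hg: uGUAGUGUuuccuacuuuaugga
mmu-miR-142a-5p, in Mir142hg: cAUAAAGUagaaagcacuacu
mmu-miR-675-5p, in H19: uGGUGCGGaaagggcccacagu
mmu-miR-101a-3p, in E130102H24Rik: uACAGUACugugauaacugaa
These 5 miRNAs have 5 different seeds. The libraries measured the long host transcripts, and the mature miRNAs were not measured.

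The most abundant member carries a stretch of another gene. Gm10076 (ENSMUSG00000060143.7, mm10 chromosome 14, 105681828 to 105682211, plus strand, a single exon) contains the complete coding sequence of Rpl41, a small protein of the large ribosomal subunit encoded on chromosome 10. The 78 bases below lie at positions 41 to 118 of the 383-base leading transcript, and they match the Rpl41 coding sequence with 0 mismatches.
Gm10076, positions 41 to 118: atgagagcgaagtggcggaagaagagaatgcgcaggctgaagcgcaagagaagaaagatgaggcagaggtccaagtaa
RefSeq types this gene as a pseudogene. Its level is uncertain for this reason and is taken up with the other members that share sequence.

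Levels spanned more than 1000-fold. The median member stood at 3.57 TPM, against 17.0 TPM for the 10727 protein-coding genes that met the same rule. Of the members, 73 (54.9%) lay between 2 and 10 TPM and 30 (22.6%) below 2 TPM, whereas 29.2% and 6.29% of the expressed protein-coding genes did. Only 2 members averaged 1000 TPM or more, 4 lay between 100 and 1000, and 24 between 10 and 100. Gm13710, with 47.6 TPM in replicate 2 and 57.5 TPM in replicate 1, was among the 15 highest by mean. So were Tmem250-ps with 35.4 and 32.1 TPM and Gm43351 with 38.4 and 26.9 TPM. All 133 together took 0.528% of TPM in replicate 2 and 0.387% in replicate 1, with a mean of 0.458% ± 0.1003 (SD, n = 2). The 3 most abundant members made up 72.4% of that sum in replicate 2 and 62.5% in replicate 1. Both figures rest in part on Gm10076, and the mean share of TPM was 0.298% in the FASTQ-derived table and 0.291% without the 21 members that share at least 50% of their sequence with other genes. The 5711 lincRNA genes below the rule took 0.0231% and 0.0163% of TPM, and 4856 of them were listed at 0 in both libraries.

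**Figure D1:**
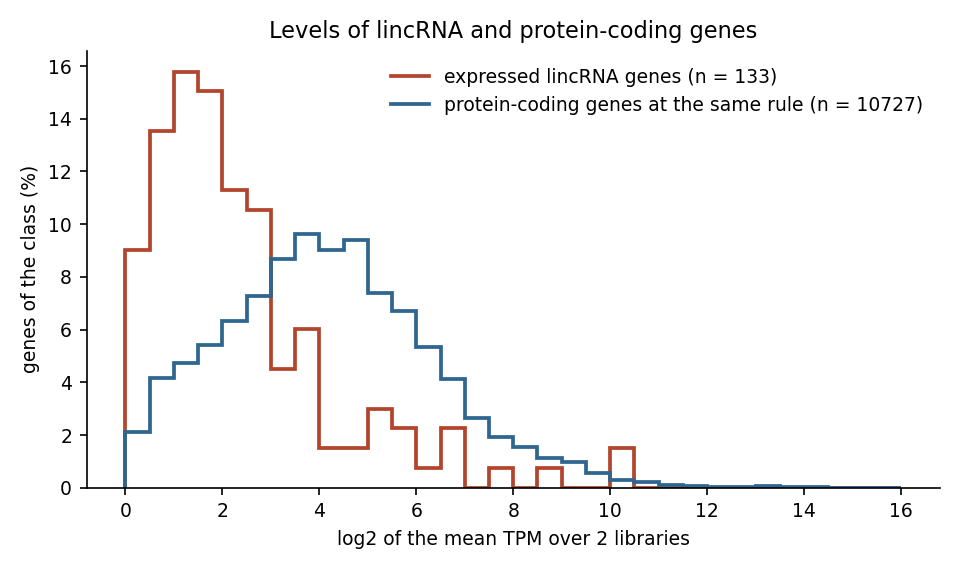
Percent of genes of each class (vertical axis) by log2 of the mean TPM over both libraries (horizontal axis), for the 133 expressed lincRNA genes and the 10727 protein-coding genes at the same rule. The lincRNA genes pile up at low levels, with a median of 3.57 TPM against 17.0 TPM, and a few reach the upper range of the protein-coding genes.

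At the threshold the step was gradual. Just inside lay 4930589L23Rik with 1.00 TPM in replicate 2 and 1.01 in replicate 1, Gm9796 with 1.00 and 1.05, and Pvt1 with 1.33 and 1.00. Just outside lay C030034I22Rik with 0.99 and 1.01 TPM, Gm26536 with 1.05 and 0.99, and 5031425F14Rik, D930016D06Rik and Gm20300, whose lower values were all 0.98. In all, 59 lincRNA genes reached 1 TPM in a single library, 37 in replicate 2 and 22 in replicate 1. The other members with the lowest means were D130017N08Rik at 1.08 ± 0.0424 TPM and Gm26857 at 1.28 ± 0.276 TPM.

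The members had shorter leading transcripts with fewer exons than expressed protein-coding genes. The leading transcript, the one with the highest mean TPM, had a median length of 1378 bases and 2 exons, against 2662 bases and 8 exons for expressed protein-coding genes. A single exon made up 17 of the leading transcripts (12.8%, against 2.14% of the protein-coding genes), 87 had 2 or 3 exons and 29 had 4 or more. The annotation lists only 1 transcript for 53 members (39.8%, against 7.57%), and at most 11. The 5711 lincRNA genes below the rule had a median of 806 bases and 3 exons. Of these, 6.44% had a single exon and 75.3% had 1 transcript. Members were thus longer than other lincRNA genes and more often had several transcripts. Most genes below the rule were listed at 0 TPM, so with several transcripts their leading one is arbitrary. Of the 80 members with several transcripts, 70 had the same leading transcript in both libraries. Members lay on all autosomes and on X, from 14 on chromosome 17 to 1 on chromosome 9.

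The label lincRNA did not hold for every member in a second annotation. By symbol or synonym, 97 members had a RefSeq entry, and 80 of these were typed lncRNA there. The matched entry was typed protein coding for 12 members, pseudogene for 3, transcribed pseudogene for 1 and the RNA of RNase MRP for 1. Of the 12, 3 were matched by synonym only. Among these, 4732487G21Rik and Gm38399 were matched to Gpatch2l and Nav1, which GENCODE lists as separate genes that overlap them. In 8 members, at least 50% of the gene's exon bases lay inside exons of another gene entry. For Rmrp this is mainly a second entry of the same symbol, and the others are not intergenic by position. A member can also lie in the span of another gene without sharing exon bases, as Gm26522 does in Ctsc.

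Members known from inflammation and macrophage biology ranged from AW112010, the second by mean TPM, to a few TPM. AW112010 (ENSMUSG00000075010.5, chromosome 19, 11047612 to 11055808, minus strand, 3 exons), which is known to be induced in mouse myeloid cells by interferon and bacterial products and to encode a small protein despite its type, had 1641 TPM in replicate 2 and 987 TPM in replicate 1. Its values stood above those of every other member without shared sequence, and no 31-base word of it occurs in another gene's transcript. The log2 ratio of replicate 2 over replicate 1 was 0.72, with a 95% counting interval of 0.69 to 0.75. The shorter of its listed transcripts, AW112010-202, made up 13.9% of the gene in replicate 2 and 8.97% in replicate 1.

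Mir155hg (ENSMUSG00000097418.7, chromosome 16, 84703167 to 84715245, plus strand), also called Bic, had 18.2 TPM in replicate 2 and 6.76 TPM in replicate 1, from 379 and 188 counts. Replicate 2 was the higher by a log2 ratio of 1.46 (1.21 to 1.73), the highest among the 114 members with at least 20 counts in each library. Gm14005, which RefSeq calls Morrbid, is known to control the lifespan of short-lived myeloid cells. It had 14.0 TPM in replicate 2 and 7.04 TPM in replicate 1, with a log2 ratio of 0.69 (0.09 to 1.31). AI427809, the RefSeq gene Mexis, known to support Abca1 expression in cholesterol-loaded macrophages, had 3.82 and 1.97 TPM and a ratio of 0.44 (0.01 to 0.87). Replicate 2 was the higher library for each of these genes.

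The list of macrophage and inflammation lincRNAs holds 21 genes, all in the table, of which 11 had only lincRNA transcripts and 8 of these were members. Ptgs2os2, a transcript beside the prostaglandin synthase gene Ptgs2, stayed below the rule with 0.39 TPM in replicate 2 and 0.12 TPM in replicate 1, and Carlr and Lncenc1 were listed at 0. The other members of the list were Neat1, Malat1, Epb41l4aos with 8.53 and 7.37 TPM, and Rmrp, the RNA of a ribosomal RNA processing enzyme, with 6.44 and 6.68 TPM from 6 and 10 counts. The counting interval lay above 0 in 6 of the 7 members of the list with 20 counts in each library, against 23.3% of all genes. The exception was Epb41l4aos, at 0.14 (-0.64 to 0.89), and Rmrp, under that count, had a ratio of -0.24 (-2.03 to 1.32). This list was chosen with earlier results of these data known, so the count of intervals is a description. The intervals cover counting error only and are narrow at high counts, such as the 42970 and 43337 of Malat1 in replicates 2 and 1. The Rmrp entry overlaps a second entry of the same symbol on the same strand over 96.4% of its bases, so its share of the reads is uncertain.

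**Figure D2:**
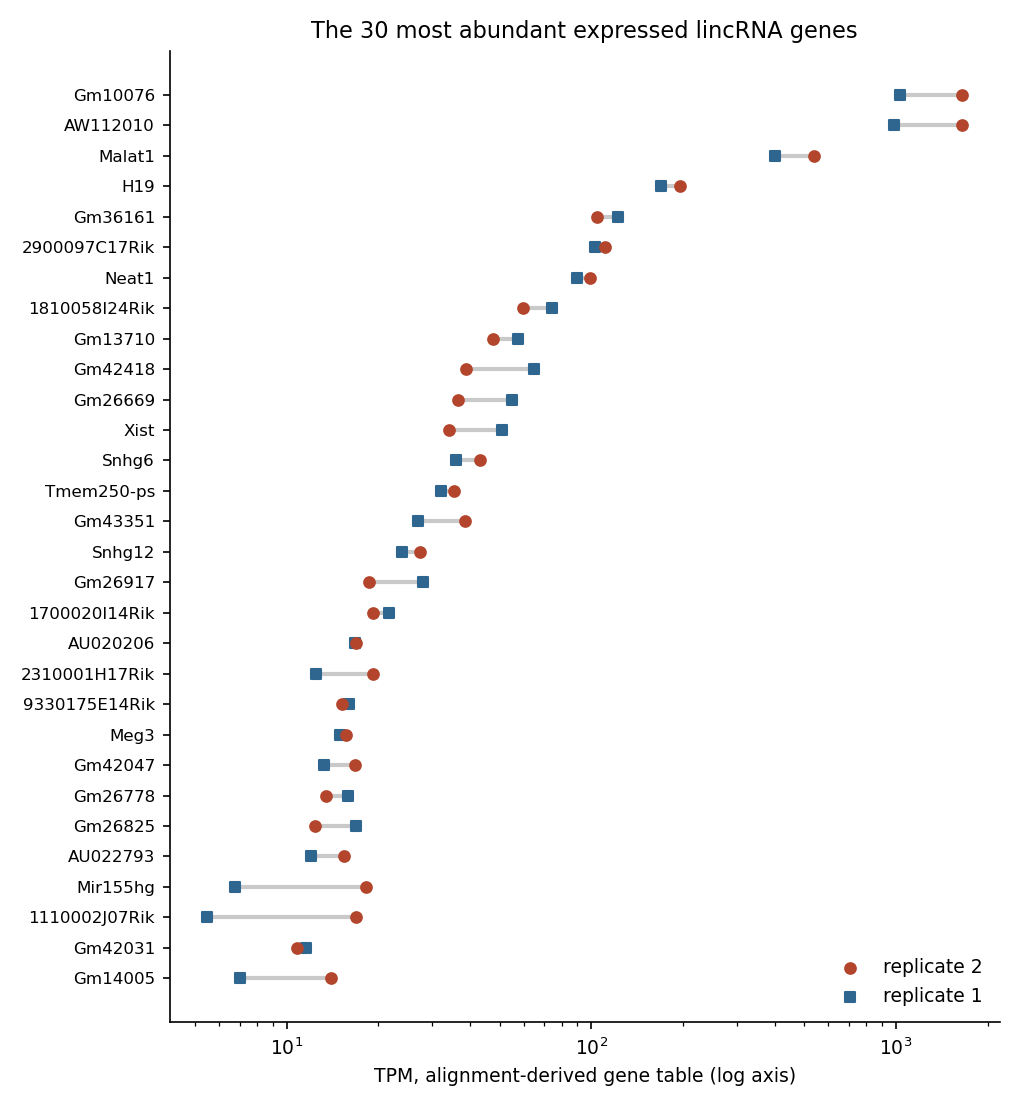
TPM in each library (horizontal log axis) for the 30 members with the highest mean (rows), replicate 2 as circles and replicate 1 as squares joined by a line. Gm10076 and AW112010 reach 987 to 1647 TPM, Malat1 follows at 539 and 401 TPM, and the widest gaps are those of Mir155hg and 1110002J07Rik.

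The nuclear RNAs Malat1 and Neat1, neighbours on chromosome 19, were among the 7 most abundant members. Malat1 (ENSMUSG00000092341.3, 5795690 to 5802672, minus strand), a resident of nuclear speckles, had 539 TPM in replicate 2 and 401 TPM in replicate 1, with a ratio of 0.44 (0.42 to 0.46). Its full-length transcript of 6983 bases made up 54.3% and 55.9% of the gene's TPM, and a transcript of 485 bases 34.2% and 29.6%. Neat1 (ENSMUSG00000092274.3, 5824708 to 5845478, minus strand), the scaffold of paraspeckles, had 99.2 TPM in replicate 2 and 89.4 TPM in replicate 1. The short form Neat1-202, of 3004 bases, had 91.2 and 85.4 TPM. The long form Neat1-201, of 20771 bases, which is the form needed to build paraspeckles, had 2.47 TPM in replicate 2 and 2.11 TPM in replicate 1. The short form lies inside the long form's locus, so reads from the shared stretch were divided by the quantification and the split is an estimate. Both libraries hold polyadenylated RNA, so these levels cover polyadenylated transcripts only. The total level of either form in the cells was not measured.

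2900097C17Rik, the RefSeq gene Norad, binds Pumilio proteins and is known for guarding genome stability. It stood at 107 ± 5.86 TPM (SD, n = 2), with 111 TPM in replicate 2 and 102 TPM in replicate 1, and was the steadiest of the members above 100 TPM. Another conserved cytoplasmic RNA, 1700020I14Rik (RefSeq Oip5os1, known as Cyrano, which triggers decay of miR-7), had 19.2 and 21.7 TPM. 1810058I24Rik, typed protein coding by RefSeq under the synonyms Mm47 and Stmp1 for a mitochondrial microprotein, had 59.5 TPM in replicate 2 and 74.1 TPM in replicate 1. Trp53cor1 (lincRNA-p21) had 1.75 and 1.28 TPM. Among the 20 listed nuclear and chromatin RNAs, 14 were typed lincRNA throughout and 9 were members. Those below the rule included Ftx at 0.86 and 0.90 TPM and Lncpint at 1.82 and 0.76 TPM.

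The imprinted RNAs H19 and Meg3 were both members. H19 (ENSMUSG00000000031.16, chromosome 7, 142575529 to 142578143, minus strand), expressed from the maternal allele and host of Mir675, had 196 TPM in replicate 2 and 169 TPM in replicate 1. The paternally expressed growth factor gene of the same cluster, Igf2, had 187 and 169 TPM. Meg3, the maternal RNA of the Dlk1 cluster on chromosome 12 and host of Mir770 and Mir1906-1, had 15.7 and 14.97 TPM, beside 18.5 and 19.1 TPM for Dlk1. In the FASTQ-derived table H19 had 161 and 148 TPM beside 114 and 109 TPM for Igf2, so the gap within that pair depended on the quantification. The stromal markers Col1a1 (243 TPM in replicate 2 and 214 TPM in replicate 1), Col1a2 and Col3a1 were present in the same libraries. Their part in the H19 and Meg3 levels was not tested.

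Xist, the RNA that coats the inactive X chromosome, had 34.0 TPM in replicate 2 and 50.9 TPM in replicate 1, from 10100 and 19938 counts, with a ratio of -0.53 (-0.56 to -0.49). Jpx, an activator of Xist encoded next to it, had 1.61 and 3.03 TPM but a count ratio of -0.02 (-0.55 to 0.49). Transcripts of the Y chromosome were present beside Xist, with Ddx3y at 2.27 TPM in replicate 2 and 1.73 TPM in replicate 1. The Eif2s3y levels were 2.13 and 1.71 TPM, while Kdm5d and Uty stayed at or below 0.72 TPM. The labels give no sex, and a mixture of cells of both sexes and other sources of these reads cannot be told apart here.

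Hosts of small RNAs were a further group: 13 members contain an annotated miRNA, small nucleolar RNA or similar gene on their own strand, and 8 contain a miRNA gene. The snoRNA hosts Snhg6 (43.0 TPM in replicate 2 and 35.8 TPM in replicate 1) and Snhg12 (27.4 and 23.9 TPM) led this group after H19. Snhg20, which holds Mir6516, had 3.83 and 4.40 TPM, and Snhg18 1.49 and 1.09 TPM. 2900076A07Rik with Mir1839 had 4.61 and 3.36 TPM, Gm37233 with Mir5103 had 2.34 and 2.50 TPM, and A930003A15Rik had 2.49 TPM in both libraries. E130102H24Rik, which holds Mir101a, had 1.14 TPM in replicate 2 and 2.73 TPM in replicate 1, on 11 and 36 counts. Of 27 small RNA hosts listed, 7 were typed lincRNA throughout and 6 of these were members. Mir17hg, host of a proliferation-linked miRNA cluster, stayed at 0.09 and 0.15 TPM. Gas5, Zfas1 and Snhg1 carry other transcript types and are outside the rule.

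Mir142hg, precursor of the blood cell miRNAs printed above, showed how far a level can hang on the quantification. It had 1.29 TPM in replicate 2 and 3.26 TPM in replicate 1 in the alignment-derived table, from 1 and 4 counts on a transcript of 269 bases. The FASTQ-derived table gave 22.3 and 19.7 TPM. The transcript is about as long as the shortest fragments kept in the libraries (250 to 400 in the labels, which give no unit), and the part of its length in the difference was not tested.

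Over all members the levels in both tables were compared as log2 alignment-derived over FASTQ-derived mean TPM, centred on the protein-coding genes, with 0.1 TPM added to each. The alignment-derived level was at least 2-fold higher in 5 of 133 members, against 2.4% of all 11517 genes at the TPM rule. It was at least 2-fold lower in 16 members (12.0%), against 0.999% of all genes. The share of members that were lower thus exceeded the background, while the share that were higher (3.76%) stood near it.

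The 5 members that were higher in the alignment-derived table all share at least 50% of their 31-base words with transcripts of other genes. Gm10076 differed most, with alignment-derived levels of 1647 TPM in replicate 2 and 1028 in replicate 1, against 0.636 and 1.65 TPM from FASTQ. Rpl41, with which it shares sequence, had 1544 and 1301 TPM by alignment and 1333 and 1149 TPM from FASTQ. Gm26825, whose exons overlap the pseudogene Gm15459 on chromosome 5, had 12.4 and 16.8 TPM against 0.307 and 0.218 TPM. Gm26527 lies wholly over exons of Arsb, a lysosomal sulfatase gene, and had 6.46 and 7.23 TPM against 0 and 0.391 TPM. Gm26718 lies wholly over exons of Pgam5, a mitochondrial phosphatase gene, and had 6.05 and 3.64 TPM against 0 and 0.136 TPM. The last of the 5 was Gm45733, which shares sequence with Baz2a. The strand setting of the counting is unknown here, so reads of such overlapping genes cannot be assigned with certainty.

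Sharing at this level concerned 21 members, and 9 of them (42.9%) differed 2-fold or more between the tables in either direction, against 12 of the other 112 (10.7%). Gm42418, which RefSeq lists under the synonym of the 18S ribosomal RNA pseudogene Rn18s-rs5, shares 96.3% of its words, mostly with the rRNA entry CT010467.1 on the opposite strand. It had 38.8 TPM in replicate 2 and 65.0 TPM in replicate 1, while CT010467.1 had 39282 and 13035 TPM, so the entries moved in opposite directions. Gm36161, at 105 and 122 TPM the fifth by mean, shares 81.6% of its words, mainly with Gm21188, yet had 84.1 and 103 TPM in the FASTQ-derived table. Gm26669 overlaps Zfp36l1, an mRNA decay factor gene, over 92.5% of its exon bases, and its 36.4 and 55.0 TPM compare with 15.8 and 24.99 TPM from FASTQ.

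Among members with less shared sequence, all 12 that differed 2-fold or more were lower in the alignment-derived table. Gm26809 led, with alignment-derived levels of 9.31 TPM in replicate 2 and 4.08 in replicate 1 against 132.6 and 64.1 TPM from FASTQ. It shares 47.4% of its words with other genes, just under the 50% limit. Mir142hg, described above, came next, and Gm47242 followed with 6.02 and 8.80 TPM against 30.7 and 78.5 TPM. The abundant members AW112010, Malat1, H19 and Neat1, with at most 9.6% of their words shared, differed by 0.18 or less on this log2 scale. Norad, which shares 44.7% of its words, mainly with Gm7292, differed by 0.04.

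**Figure D3:**
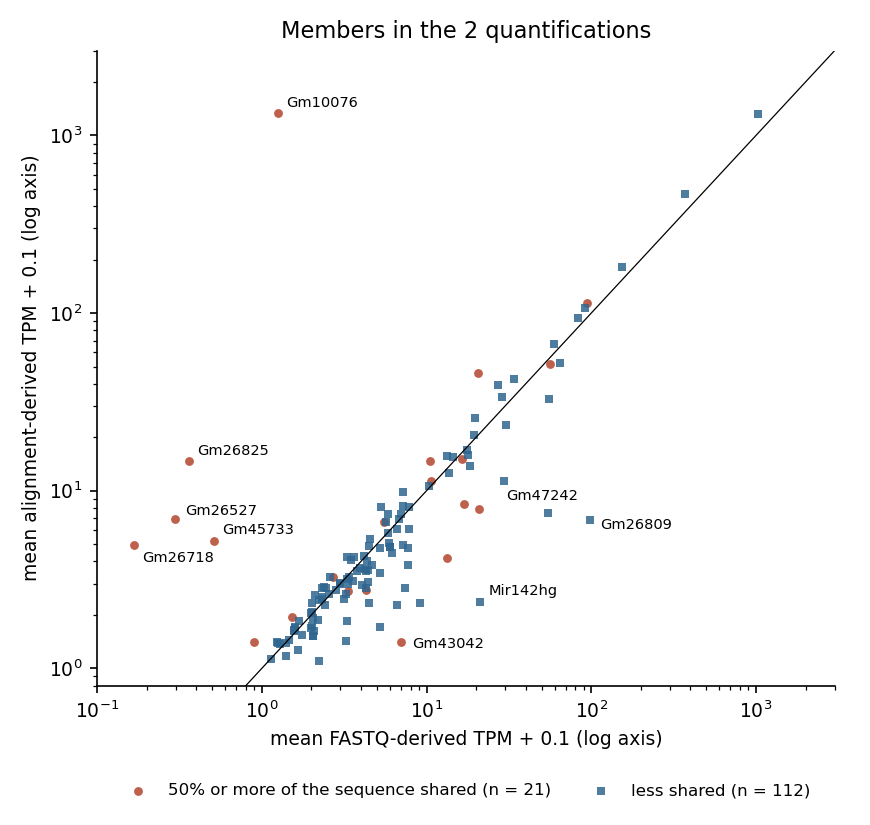
Mean TPM plus 0.1 over both libraries in the alignment-derived table (vertical log axis) against the FASTQ-derived table (horizontal log axis) for the 133 members, with circles for the 21 that share at least 50% of their sequence and squares for the rest. The line marks equal values. Gm10076, Gm26825, Gm26527, Gm26718 and Gm45733 lie far above it and are all circles, while Gm26809, Gm47242 and Mir142hg lie far below.

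The libraries were compared as replicate 2 over replicate 1, on counts scaled by TMM (a trimmed mean that sets the bulk of genes to no change) with 0.5 added. There is 1 library on each side, so the ratio has no replicate check and no test, and its exact binomial interval covers counting error only. Both libraries belong to 1 condition, and variation between cultures and variation between library preparations cannot be told apart. Of the 133 members, 114 had 20 counts in each library. Their median log2 ratio was 0.09, beside -0.02 over all 12471 genes that passed the same filter, and the middle 50% of members lay between -0.15 and 0.44, against -0.21 and 0.18. The median absolute ratio was 0.31, against 0.18 for protein-coding genes at the TPM rule, whose counts were higher (a median of 793 in replicate 2 and 1115 in replicate 1, against 71 and 95).

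At least 2-fold higher in replicate 2 were 5 members (4.39%), against 1.96% of all genes. At least 2-fold lower were 3 members (2.63%), against 0.521% of all genes. The counting interval lay above 0 in 34 members (29.8%), against 23.3% of all genes, and below 0 in 16 (14.0%), against 31.2%. Where a member differed by more than counting error, it was thus more often higher in replicate 2.

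Beside Mir155hg, the members past 2-fold in the upward direction are little known. 1110002J07Rik, on chromosome 10, had 16.9 TPM in replicate 2 and 5.49 TPM in replicate 1, with a ratio of 1.35 (1.13 to 1.58). Its short transcript 1110002J07Rik-202 had 5.56 and 0.81 TPM, a wider gap than that of the long one at 11.4 and 4.68 TPM. Gm33251 on chromosome 15 had 4.11 and 1.66 TPM (ratio 1.33, 0.75 to 1.95). Gm26522 on chromosome 7 had 4.77 and 2.06 TPM (1.25, 0.83 to 1.69). It lies inside the span of the protease gene Ctsc on the opposite strand, with 0% of its exon bases in exons of another gene. Ctsc had 585 and 713 TPM and a ratio of -0.23. Gm26809 had a ratio of 1.24 (1.04 to 1.45). All 5 also passed 2-fold on the FASTQ-derived counts. Next in order were Gm39556 at 0.98 (0.49 to 1.48), 5031425E22Rik at 0.90 (0.55 to 1.25) and Gm32089 at 0.88 (0.42 to 1.35).

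The members at least 2-fold lower in replicate 2 were these 3. Gm5165 on chromosome 17 had 1.70 TPM in replicate 2 and 4.32 TPM in replicate 1, with a ratio of -1.29 (-1.71 to -0.91). Gm15326 on chromosome 13 had 2.78 and 3.93 TPM (-1.03, -1.65 to -0.48) and Gm26880 on chromosome 4 had 2.66 and 5.53 TPM (-1.02, -1.49 to -0.59). Of these, only Gm5165 also passed 2-fold on the FASTQ-derived counts. In Gm15326 the transcripts differed, since Gm15326-202 had 1.36 and 3.01 TPM while Gm15326-201 had 1.42 and 0.93 TPM. RefSeq types Gm5165 as protein coding. Then followed E430024I08Rik at -0.78, Gm42418 at -0.70, 4930555A03Rik at -0.60, Gm47242 at -0.59 and Gm49797 at -0.56.

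The 19 members under 20 counts in a library were kept out of these counts. Among them Gm49662 had 17 and 4 counts with a ratio of 2.41 (0.92 to 4.57), and 1810044D09Rik 18 and 9 counts with 1.42 (0.22 to 2.79). E130102H24Rik had a ratio of -1.21 (-2.38 to -0.25). The intervals of these 3 members span more than 2 log2 units.

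The replicates also differed in protein-coding genes of the early inflammatory response. Of the 72 genes listed, 69 had 20 counts in each library, with a median ratio of 0.94. Of these 69, 32 were at least 2-fold higher in replicate 2, against 1.96% of all genes. None was at least 2-fold lower, against 0.521% of all genes. The list was chosen with earlier results of these data known, so these counts are a description. Tnf, the leading early cytokine, had 1198 TPM in replicate 2 and 451 TPM in replicate 1, a ratio of 1.45 that is close to the 1.46 of Mir155hg. The neutrophil markers S100a9 (5.28 and 40.0 TPM) and Ngp (0.40 and 10.2 TPM) went the other way. The part of either in the ratios of the members was not tested.

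**Figure D4:**
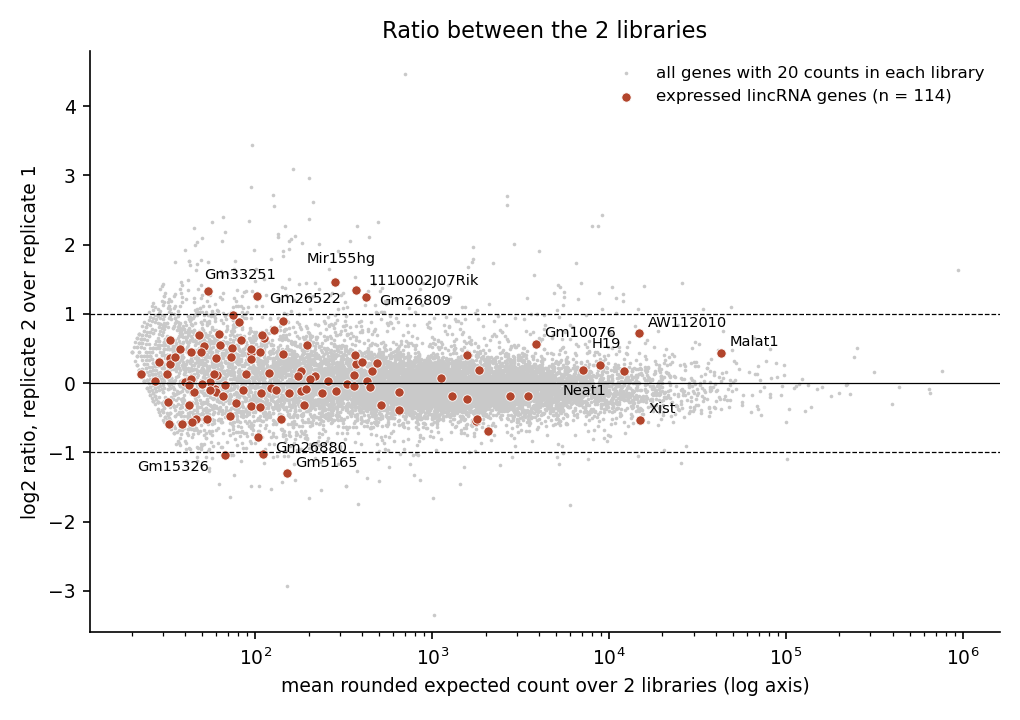
Log2 ratio of replicate 2 over replicate 1 (vertical axis) against the mean rounded count (horizontal log axis), for 114 members in colour over all 12471 genes in grey. Dashed lines mark 2-fold. Mir155hg, 1110002J07Rik, Gm33251, Gm26522 and Gm26809 lie above the upper line and Gm26880, Gm15326 and Gm5165 below the lower one.

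Position was not part of the rule. A protein-coding gene started on the opposite strand within 5000 bases of 25 members (18.8%), against 8.88% of the lincRNA genes below the rule and 22.4% of the expressed protein-coding genes. Within 1000 bases there were 20 (15.04%, against 5.18% and 17.3%). These pairs, called divergent here, were set by strand and distance alone. Pairs that point away from each other can share a promoter region. Gm26669 and Gm26778 instead lie wholly inside the spans of their partners, Zfp36l1 and Kctd12. They share 90.8% and 99.3% of their words with these genes, so their levels and ratios cannot be separated from the partners' with certainty. The median distance to the nearest protein-coding start was 29796 bases, and 48 members had none within 50000 bases.

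In divergent pairs the protein-coding gene was nearly always the more abundant. In the 22 pairs within 5000 bases in which both genes had 20 counts in each library, it had the higher mean TPM in 20, with a median difference of 2.44 on the log2 scale. These 22 include Gm26669 and Gm26778, which lie inside their partners. The gap was not particular to divergent pairs. For 76 members without shared sequence, the nearest protein-coding gene, divergent or not, had the higher level in 64. The median difference there was 2.77 on the log2 scale. The ratios between replicates showed little relation across these 22 pairs (Pearson r = 0.05 and Spearman rho = 0.04, as a description of pairs that share the same libraries), and 11 pairs had ratios of the same sign. 5031425E22Rik, which starts 172 bases from the histone reader gene Kmt2e, had 5.10 TPM in replicate 2 and 2.73 TPM in replicate 1, with a ratio of 0.90 (0.55 to 1.25), while Kmt2e had 17.2 and 19.8 TPM and -0.10 (-0.17 to -0.02). Gm26637, which overlaps the start of Eif2ak2, the antiviral kinase PKR, had a ratio of 0.42 (0.08 to 0.77) beside -0.36 (-0.41 to -0.31). In both pairs the intervals of the partners lay on opposite sides of 0. Across the 20 pairs within 1000 bases, the intervals of the partners did not meet in 5.

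4833419F23Rik, 543 bases from Map3k8, which encodes the kinase that carries Tlr4 signals to ERK, had a ratio of -0.48 (-1.02 to 0.03) beside 0.47 (0.38 to 0.56). 9330175E14Rik, the most abundant of the 20 members within 1000 bases, had 15.2 and 16.04 TPM next to Nlrc5, the activator of MHC class I genes, with 88.8 and 99.6 TPM.

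**Figure D5:**
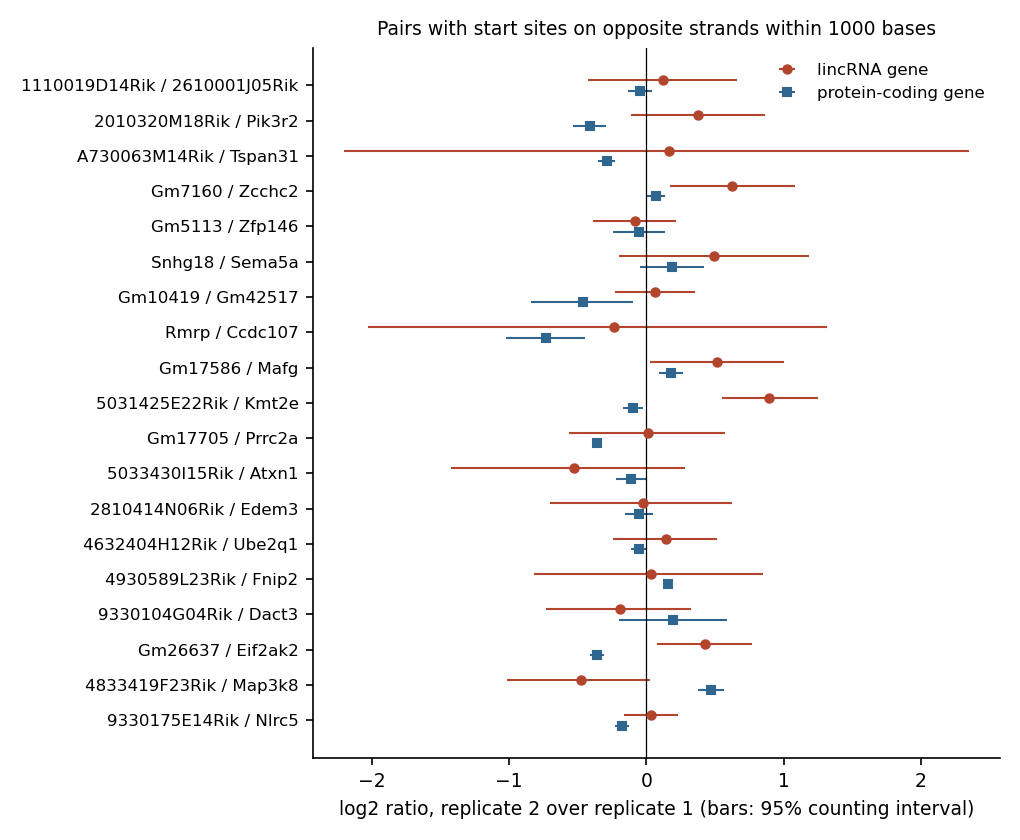
Log2 ratio of replicate 2 over replicate 1 (horizontal axis) with 95% counting intervals for 19 of the 20 members with a protein-coding start on the opposite strand within 1000 bases (circles) and their partners (squares), ordered by distance. Intervals of the lincRNA genes are wide, and in 5 pairs (2010320M18Rik, Gm7160, 5031425E22Rik, Gm26637 and 4833419F23Rik) they do not meet those of the partner.

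No member had a divergent partner among the listed early inflammatory genes, and 4 lay within 100 kb of such a gene. D730003I15Rik starts 6415 bases from Atf3, a stress-induced transcription factor gene, and had 3.31 TPM in replicate 2 and 2.15 TPM in replicate 1, beside 283 and 255.6 TPM for Atf3. Pvt1 starts 52595 bases from Myc, and these had 1.33 and 1.00 TPM and 4.16 and 3.07 TPM. Gm17705, 36888 bases from Tnf, had a ratio of 0.01 (-0.57 to 0.57) beside 1.45 for Tnf. 2010320M18Rik lies 77866 bases from Jund. Trp53cor1 starts 11797 bases from Cdkn1a, the cell cycle inhibitor gene of the p53 pathway, which had 404 and 273 TPM.

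Promoters were looked up in RefSeq for 74 members, and in 55 the listed start lay within 100 bases of that of the leading transcript. Windows of 300 bases (250 before the start and 50 after) were searched on both strands for 6 motifs. The PU.1 motif (GAGGAAGT), bound by the factor that defines myeloid cells, was in 6 of 55 windows (10.9%, exact binomial interval 4.11 to 22.2%), against 3.20% of all 32851 windows and 3.48% of those of expressed protein-coding genes. The CRE (TGACGTCA) was in 3 (5.45%, against 1.79% and 3.06%) and the AP-1 motif (TGANTCA) in 5 (9.09%, against 7.81% and 5.08%). The interferon-response motif (GAAANNGAA) was in 4 (7.27%, against 8.56% and 7.58%), and TATAAA in 6 (10.9%, against 13.6% and 7.0%). An NF-kB motif was in a single window (1.82%, against 4.51% and 5.21%), that of AW112010. The intervals of these other motifs all included both shares, such as 1.14 to 15.1% for the CRE and 0.046 to 9.72% for NF-kB. The PU.1 interval was the only one of 6 that did not, with no correction for the number of motifs searched. The median ratio of observed to expected CpG was 0.523 in the members' windows, against 0.765 for expressed protein-coding genes and 0.384 for all.

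The windows of the most abundant member without shared sequence and of the member with the highest ratio are printed for this reason, 5′ to 3′ on the transcribed strand with motif matches in capitals. In AW112010 (GRCm38.p6, chr19:11050517-11050816, minus strand) the capitals mark the NF-kB match, which begins 70 bases before the start. In Mir155hg (chr16:84712773-84713072, plus strand) they mark an interferon-response match that begins 238 bases before the start of the leading transcript.
AW112010: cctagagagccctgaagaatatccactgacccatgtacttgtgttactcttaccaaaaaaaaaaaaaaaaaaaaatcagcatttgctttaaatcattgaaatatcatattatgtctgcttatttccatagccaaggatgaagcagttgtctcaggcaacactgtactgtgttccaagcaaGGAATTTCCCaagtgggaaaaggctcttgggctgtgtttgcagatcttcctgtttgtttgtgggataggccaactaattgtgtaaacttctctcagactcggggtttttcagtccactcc
Mir155hg: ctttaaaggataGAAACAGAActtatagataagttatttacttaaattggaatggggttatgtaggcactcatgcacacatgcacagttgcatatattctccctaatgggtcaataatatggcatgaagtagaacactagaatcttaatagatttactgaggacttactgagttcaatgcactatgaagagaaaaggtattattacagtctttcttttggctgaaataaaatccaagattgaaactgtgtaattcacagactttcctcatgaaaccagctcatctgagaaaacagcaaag
Other matches included a CRE and TATAAA in Meg3, 57 and 29 bases before the start, a CRE in 1810044D09Rik at 48 and an AP-1 motif in D730003I15Rik at 11. A match describes letters in a window and not a bound site.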

How the data were processed

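Polyadenylated RNA was sequenced from 2 libraries of 1 group. Each library has 3 deposited tables. Per the file headers, the authors gave expected counts, TPM and bounds on TPM (treated as a score) for genes and transcripts after alignment, with isoform percent, each transcript's share of its gene. A further table, quantified by the authors from 4 FASTQ files per the deposited notes, lists estimated counts and TPM for transcripts. The build is mm10 with GENCODE M21, per the deposited notes, with tools and versions not given in the sources used here.

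Expected counts were rounded. TMM factors came from edgeR 4.0.16 (R 4.3.3). Alternatives were library totals and the size factors of DESeq2 1.42.0. Ratios carry exact Clopper-Pearson intervals at 95% on counts. Intervals and floors (3 counts) cover counting error only, since reads can be copies of 1 molecule. Gene symbols, coordinates and types came from GENCODE M21, other names and promoters from RefSeq (GRCm38.p6), of which GRCm38 is the same assembly as mm10. Shared sequence was the percent of a leading transcript's 31-base words found in other genes' transcripts. Ratio and interval code was tested on simulated data. Tables and figures were made with Python 3.11.15 and its packages scipy 1.17.1, pandas 2.3.3, matplotlib 3.10.9 and numpy 2.4.6.

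Members and gene lists were chosen with earlier results of these data known. Named genes were the 15 highest and 5 lowest members by mean TPM, the 8 highest and 8 lowest ratios at 20 counts in each library, the 5 largest differences between tables, the genes nearest below the threshold (3, with ties), members of the lists and small RNA hosts, and members beside an early inflammatory or 2-fold different divergent gene. Other members were named after their values were seen. The values of 1 divergent pair are not reported here.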

Additional observations from a re-analysis of the deposited data

How the results depend on the processing

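No paired analysis was possible because both libraries belong to 1 group. The number of expressed lincRNA genes was 205 at a TPM of 0.5, 90 at 2, 44 at 5 and 222 in the FASTQ-derived table, against 133, and 155 to 170 from single libraries. Of the 133, 125 also reached 1 TPM in the FASTQ-derived table. Their median level was 4.28 TPM there, and 3.63 to 4.11 TPM in single libraries. The share of TPM was 0.298% in the FASTQ-derived table, 0.324% without Gm10076 and 0.291% without the 21 members that share sequence (an alternative added after seeing the data), against 0.458%, and 0.387 to 0.528% in single libraries. With 100 counts in each library, 3 of 54 members were 2-fold higher and 0 were 2-fold lower, and with no count filter 7 and 5 of 133 were. Divergent neighbours numbered 20 at the shorter and 33 at the longer distance limit, against 25. The median ratio lay between 0.04 and 0.13, and motif shares stayed inside their binomial intervals. Of 162 alternative ratios of 54 named members, 153 lay inside the counting interval and 9 outside it. All 9 were on FASTQ-derived counts, which give 1 ratio for each of the 54 members. The scaling alternatives could hardly leave the interval, because their factors nearly equal those of TMM. In replicate 1 these were 1.1703 for DESeq2 and 1.1673 for library totals, against 1.1702 for TMM. FASTQ-derived counts also changed the sign of 7 ratios: Gm10076 to -1.16, Gm26718 to -3.03, Gm26825 to 0.63, Rmrp to 0.43 and Mir142hg to 0.16, with A930003A15Rik and Gm9796 staying within 0.04 of 0. The cause was not tested.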

Other observations

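Outside the rule, 97 lincRNA genes reached 1 TPM in both libraries of the FASTQ-derived table alone. The highest was Gm29408 with 50.9 TPM in replicate 2 and 35.4 TPM in replicate 1, although it was listed at 0 in the alignment-derived table. Gm48942 (33.6 and 16.7 TPM) and Bc1 (15.4 and 10.5 TPM), known as a cytoplasmic RNA of neurons, were likewise listed at 0 by alignment. Gm12840 had 6.52 and 0.90 TPM by alignment, from 47 and 9 counts, and 21.6 and 9.01 TPM from FASTQ. Gm28872 had 19.6 TPM in replicate 2 on a single count and was listed at 0 in replicate 1.

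In 7 members the gene that shares most 31-base words is a zinc finger gene named Zfp, counting members with at least 5% of their words shared. Among them are Gm5165 and Gm6712, whose partner is Zfp97, and Gm13166, whose partner is Zfp991. Gm26669 and Gm20707, also among the 7, overlap exons of their partners Zfp36l1 and Zfp984. The same share was not computed over other genes, so the 7 are a description.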
